A study of Pardosa pseudoannulata with 6 samples.

Results

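Genes of the germ line and of small RNA pathways were described in RNA sequencing of the wolf spider Pardosa pseudoannulata, a predator of rice fields. They were chosen by words in the best protein hit of each assembled gene, such as piwi, argonaute, Dicer, tudor, vasa, nanos, meiosis, synaptonemal and RNA-dependent RNA polymerase. Of 75542 genes, 75 carried such a word, and 66 of these reached 0.5 FPKM (fragments per kilobase and library size) in at least 3 of 6 libraries without a best hit named from Drosophila. The tested libraries were 3 from spiders injected with double-stranded RNA against F-actin (dsFactin), set against 3 from spiders injected with negative-control double-stranded RNA (dsNC). Animals of both groups had been treated with cadmium. The tissue label reads individual, and neither sex, age nor stage is given. Whether the replicates are separate animals is not in the labels. The p-values then reflect only how far these libraries vary, and that variation could be technical. Since both groups received double-stranded RNA and cadmium, the comparison holds no animal without either.

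Small RNA pathways work through Argonaute proteins that carry a short guide RNA to a matching transcript. In the microRNA and RNA interference branches, the RNase III enzymes Drosha and Dicer cut the guides from longer double-stranded RNA. In the germ line of animals, PIWI proteins carry piRNAs that keep transposons silent, and Tudor-domain proteins and the helicase vasa assemble them in perinuclear granules. RNA-dependent RNA polymerases copy RNA into double strands and amplify silencing in nematodes and plants. Arachnid genomes encode them as well, while Drosophila lacks them.

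The 66 genes filled all the roles that follow, with 17 RNA-dependent RNA polymerases, 15 meiosis genes, 12 Argonautes, 11 Tudor-domain genes, 3 Dicer hits, 3 nanos or germ cell genes, 2 PIWI genes, and 1 each of Drosha, vasa and maelstrom. No member carried the words aubergine, spindle-E or oogenesis. They had 56 distinct best hits, and transcripts that share a hit may be pieces of 1 gene, which was not tested. No source used here says how reads were divided among paralogs, which leaves single Argonautes and polymerases uncertain. Pfam domains, which the words did not use, matched the names of most Argonautes and polymerases: 10 of 12 Argonautes carried a Piwi, PAZ or Argonaute domain and 13 of 17 polymerases carried the RNA dependent RNA polymerase domain. Only 4 of 11 Tudor-domain genes carried a Tudor entry. Of the Dicer hits, 1 (Cluster-8110.23516) entered through the Latin name of a rhinoceros, Diceros bicornis, and is not a Dicer. Several other members are not limited to the germ line in other animals, among them the Argonautes, Dicer, Drosha and tudor domain-containing protein 3. The label therefore describes a set of words rather than a germ cell type.

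Just inside the limit on low values was a synaptonemal complex protein 1 hit (Cluster-8110.53861) at 0.290, 0.290 and 0.760 FPKM in dsFactin and 0.520, 1.27 and 0.300 FPKM in dsNC. Just outside it was a MEIOC hit (Cluster-9656.0), a meiosis regulator in mice, at 0.390, 0.120 and 0.5 FPKM in dsFactin and 0.200, 0.810 and 0.340 FPKM in dsNC. In all, 9 matched rows fell short of the limit, 1 of which named Drosophila. No member reached 0.5 FPKM in all libraries of 1 group and none of the other.

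Depth, recovered from the steps between low FPKM values, was 16130000 to 17960000 fragments in dsFactin and 15790000 to 17620000 in dsNC. For a gene 1000 bases long, 3 fragments equalled 0.233 to 0.277 FPKM, and 6 members had a mean below the level of 3 fragments in a gene of their length. Genes above 0 numbered 47167 to 55781 in dsFactin and 57714 to 61503 in dsNC, with dsFactin replicate 3 lowest. Among the abundant actins, the A3a-like one (Cluster-8110.34823) was at 1906, 2321 and 3221 FPKM in dsFactin and 4443, 5949 and 5426 FPKM in dsNC (log2 difference -1.11 ± 0.24, SE, adjusted p = 0.0911, limma). An actin clone 403 hit (Cluster-8110.34975) lay wholly higher at 1826, 1861 and 2107 FPKM in dsFactin, against 1746, 1666 and 1786 FPKM in dsNC, and a further one (Cluster-8110.34480) wholly lower at 3014, 3145 and 4034 FPKM in dsFactin, against 4044, 4335 and 4178 FPKM in dsNC. Of 12 actins 0 passed and 4 were positive, where 28.4% of all tested genes were positive. Of all tested genes with a mean of at least 5 FPKM, 41% were positive. The labels do not say which actin the injected RNA matched.

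None of the 66 genes passed at an adjusted p under 0.05 in limma, where 264 of 53182 tested genes (0.496%) did, 0.0771% higher and 0.419% lower, and the smallest adjusted p of a member was 0.0949. At an unadjusted p under 0.05, 6 members were higher and 5 lower in dsFactin, against 4.53% and 14.8% of all tested genes (19.3% in either direction). In voom on recovered fragments 1 member passed, where 1206 of all tested genes (2.27%) did. All dsFactin libraries lay above all dsNC libraries in 12 members and below them in 10, against 5.98% and 21.5% of all tested genes. The median log2 difference, on the log2(FPKM + 1) scale, was -0.12 for the members and -0.27 for all tested genes. The tissue is labelled only as Individual, and in such bulk RNA fewer cells of a type and less RNA per cell cannot be told apart.

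The direction of the members went with their level, a split made after the values were seen. Of 22 members with a mean of at least 5 FPKM, 17 had a positive difference and 11 had dsFactin wholly above dsNC, against 41% and 15.6% of all tested genes at that level. In 1 dsFactin lay wholly below, against 23.5%. Their median was 0.31, where all such genes had -0.12. Of 44 members under 5 FPKM, 5 were positive and 9 had dsFactin wholly below dsNC, against 24.4% and 20.8% of all tested genes at that level. In 1 dsFactin lay wholly above, against 2.92%. Their median of -0.31 equalled that of all such genes, -0.31. After median-ratio rescaling all 22 of the abundant members were positive, against 63.0% of all genes at that level, with a median of 0.61 against 0.18 for all genes at that level, and 17 of the 44 less abundant ones were.

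**Figure D1:**
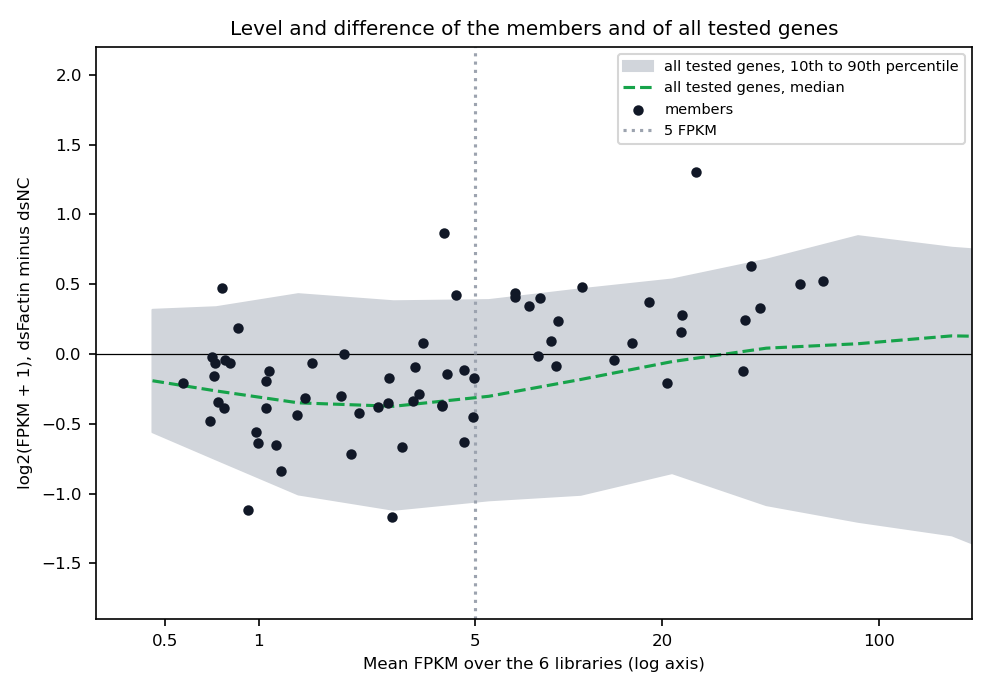
Log2 difference (dsFactin minus dsNC, log2(FPKM + 1) scale) against mean FPKM over the 6 libraries (log axis) for the 66 members (points), with the 10th to 90th percentile band and the median of all tested genes by level. Of the 22 members right of the dotted line at 5 FPKM, 17 lie above 0, and of the 44 left of it, 5 do. Over all tested genes these shares are 41% and 24.4%.

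The most abundant member was the vasa-like helicase (Cluster-8110.32991), an RNA helicase of the DEAD-box family that marks germ cells in many animals. It was at 68.0, 63.1 and 105 FPKM in dsFactin and 52.8, 54.3 and 52.2 FPKM in dsNC. All dsFactin libraries lay above the narrow dsNC range, with dsFactin replicate 3 far above the others. The log2 difference was 0.52 ± 0.20 (SE, adjusted p = 0.238, limma) and 0.30 without dsFactin replicate 3.

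The PIWI genes went opposite ways. Piwi-like protein 1 (Cluster-8110.38022), a piRNA-binding protein, was at 51.2, 52.0 and 96.8 FPKM in dsFactin and 43.1, 48.2 and 42.9 FPKM in dsNC (log2 difference 0.50 ± 0.26, SE, adjusted p = 0.347, limma). As with vasa, dsFactin replicate 3 stood highest, and the difference was 0.21 without it. Piwi-like protein Ago3 (Cluster-8110.38150), which in Drosophila pairs with aubergine to multiply piRNAs, was at 4.30, 3.94 and 3.72 FPKM in dsFactin and 6.08, 6.17 and 5.27 FPKM in dsNC. Here all dsFactin libraries lay below dsNC (log2 difference -0.45 ± 0.16, adjusted p = 0.198, limma), and the difference was -0.19 after median-ratio rescaling and -0.18 under quantile normalization.

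The ratio of the PIWI genes within a library does not depend on how libraries are scaled to each other. Piwi-like protein 1 was 11.9, 13.2 and 26 times Ago3 in dsFactin and 7.09, 7.81 and 8.14 times Ago3 in dsNC. The ratio of vasa to the most abundant Argonaute was 1.93, 1.77 and 3.12 in dsFactin and 1.34, 1.45 and 1.41 in dsNC. In both ratios dsFactin lay wholly above dsNC. This follows from the single genes, since dsFactin lay wholly above dsNC in each numerator and wholly below in each denominator. The pairs were chosen after their values were seen, so no test is given.

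**Figure D2:**
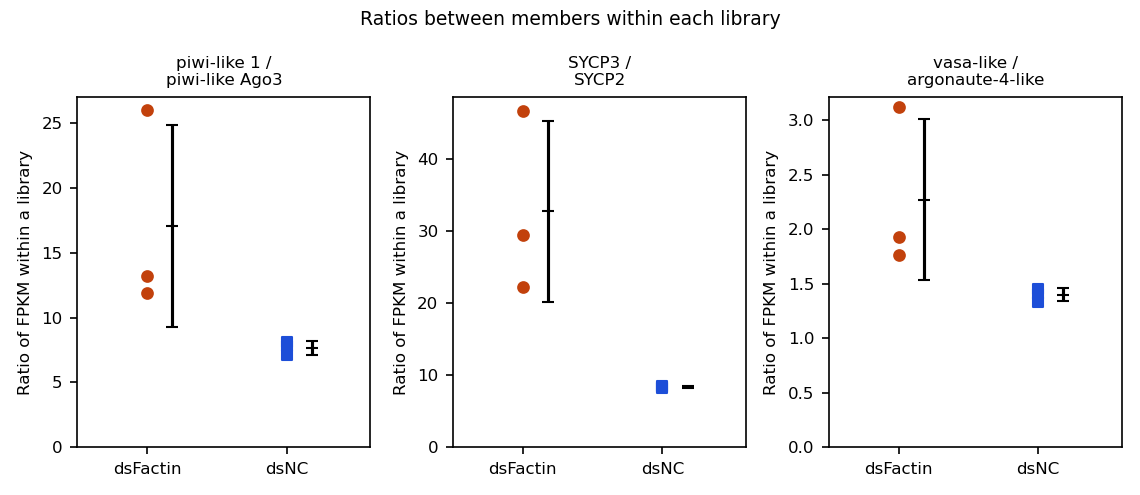
Ratio of the FPKM of a pair of members within each library, for piwi-like protein 1 over piwi-like Ago3, SYCP3 over the more abundant SYCP2 hit (synaptonemal complex proteins), and the vasa-like helicase over the most abundant argonaute-4-like transcript. Points are libraries (dsFactin circles, dsNC squares) and bars are mean and SD (n = 3). In each panel all dsFactin libraries lie above all dsNC libraries. This follows from dsFactin lying wholly above dsNC in each numerator and wholly below in each denominator.

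Maelstrom (Cluster-8110.38988), a piRNA pathway protein first named in Drosophila oocytes, overlapped between groups at 9.15, 7.87 and 10.2 FPKM in dsFactin and 8.18, 9.46 and 7.68 FPKM in dsNC (log2 difference 0.09 ± 0.16, SE, adjusted p = 0.774, limma).

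Tudor-domain proteins read methylated arginines on partners such as PIWI proteins. Of the 11, 0 passed, 7 had a positive difference and 4 a negative one, where 28.4% of all tested genes were positive. The 7 positive ones were the 7 most abundant. Tudor domain-containing protein 5, needed for transposon silencing in mouse male germ cells, had hits of both signs. The hit Cluster-8110.31818 was at 7.4, 7.23 and 8.87 FPKM in dsFactin and 6.31, 5.68 and 4.66 FPKM in dsNC (log2 difference 0.43 ± 0.17, SE, adjusted p = 0.244, limma). The hit Cluster-8110.42727 was at 7.31, 6.46 and 9.67 FPKM in dsFactin and 5.71, 5.78 and 5.25 FPKM in dsNC (log2 difference 0.41 ± 0.18, adjusted p = 0.293), and the difference was 0.26 without dsFactin replicate 3. Neither overlapped between groups, and dsFactin replicate 3 was highest in both. A further hit, Cluster-8110.38983, lay wholly lower in dsFactin at 1.55, 1.34 and 1.75 FPKM, against 2.27, 2.15 and 1.97 FPKM in dsNC.

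Tudor domain-containing protein 7 (Cluster-8110.36988), a granule protein of mouse germ cells and lens, was at 25.6, 23.2 and 27.8 FPKM in dsFactin and 23.1, 21.6 and 18 FPKM in dsNC. These ranges met without overlap (log2 difference 0.28 ± 0.15, SE, adjusted p = 0.353, limma), and the difference was 0.18 without dsNC replicate 3. The hits to tudor domain-containing protein 3, an RNA-binding protein of most cell types in mammals, overlapped between groups. They stood at 35.1, 37.3 and 47.9 FPKM in dsFactin and 39.3, 35.2 and 26.8 FPKM in dsNC (Cluster-8110.41523), and at 23.9, 18.3 and 32.0 FPKM in dsFactin and 23.5, 20.2 and 20.9 FPKM in dsNC (Cluster-8110.38170). The tudor and KH domain homolog (Cluster-8110.30904), a mitochondrial-surface partner of PIWI proteins in mice, also overlapped, at 13.3, 14.7 and 22.0 FPKM in dsFactin and 17, 14.9 and 14.4 FPKM in dsNC. Without dsFactin replicate 3 the sign of Cluster-8110.38170 and of Cluster-8110.30904 was negative.

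The longest Tudor genes lay wholly lower in dsFactin. The tudor domain-containing 6 hit Cluster-8110.41405, of 9712 bases, was at 3.76, 4.06 and 2.44 FPKM in dsFactin and 6.29, 6.6 and 4.52 FPKM in dsNC (log2 difference -0.63 ± 0.23, SE, adjusted p = 0.218, limma). The tudor domain-containing protein 1 hit Cluster-8110.34762, of 5935 bases, was at 2.39, 2.33 and 1.38 FPKM in dsFactin and 3.79, 4.28 and 3.25 FPKM in dsNC (log2 difference -0.67 ± 0.23, adjusted p = 0.189). Both proteins build germ granules in mice, and in both dsFactin replicate 3 was lowest. A different tudor domain-containing protein 6 hit (Cluster-8110.41794) lay wholly higher, at 6.98, 7.79 and 10.7 FPKM in dsFactin and 6.50, 6.50 and 6.10 FPKM in dsNC.

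**Figure D3:**
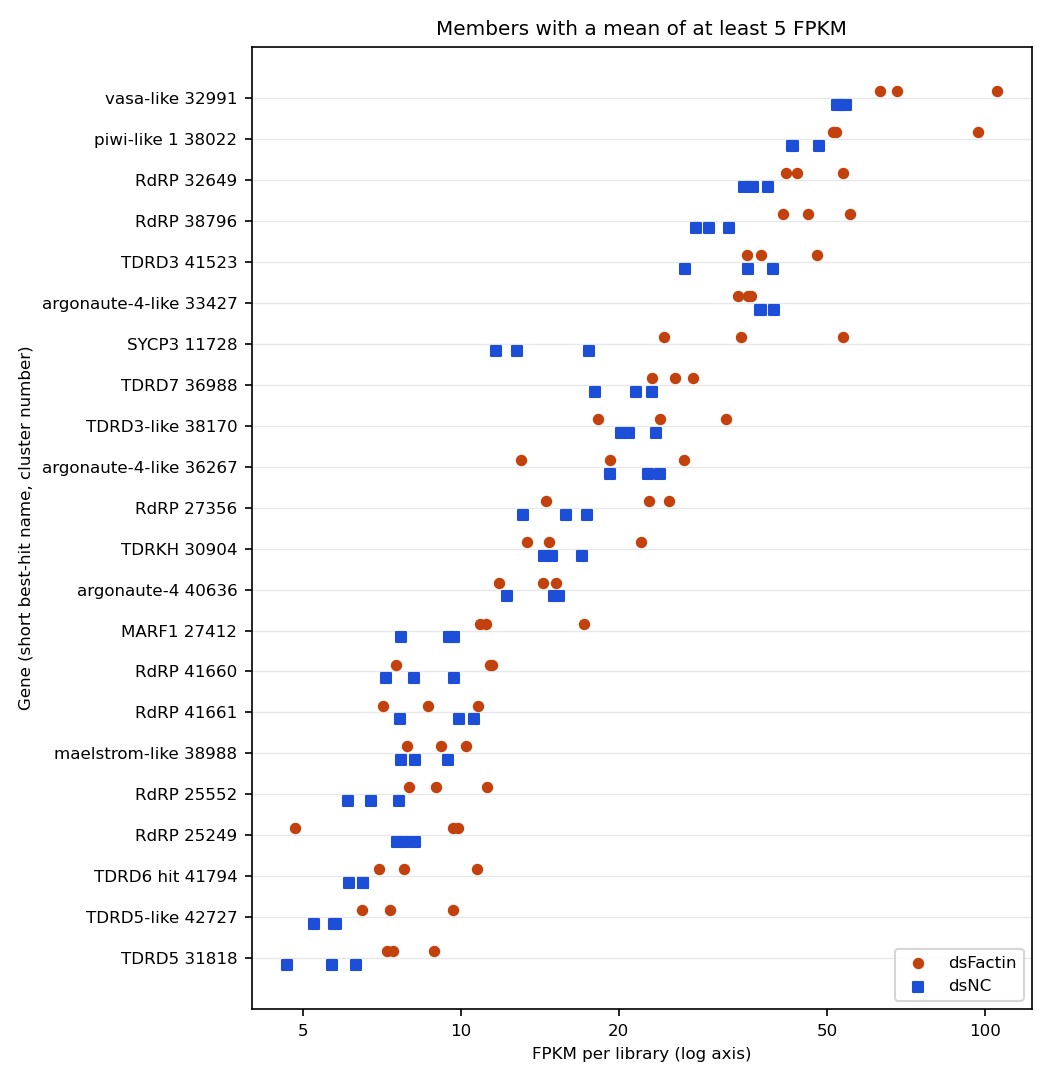
FPKM per library (log axis) of the 22 members with a mean of at least 5 FPKM, ordered by mean, with dsFactin (circles) above dsNC (squares) in each row. In 11 rows all dsFactin points lie right of all dsNC points, and in 1, the most abundant argonaute-4-like gene, they lie left of them. Over all tested genes at that level the shares are 15.6% and 23.5%.

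Argonautes other than PIWI, which carry microRNAs and small interfering RNAs, were at similar values in the groups where they were abundant. The argonaute-4-like gene Cluster-8110.33427 was at 35.3, 35.7 and 33.7 FPKM in dsFactin and 39.6, 37.4 and 37.1 FPKM in dsNC. Its groups did not overlap, but the difference was small (log2 difference -0.12 ± 0.10, SE, adjusted p = 0.558, limma) and 0.20 after median-ratio rescaling. The argonaute-4-like gene Cluster-8110.36267 overlapped at 26.6, 19.2 and 13.0 FPKM in dsFactin and 24, 22.8 and 19.3 FPKM in dsNC. The argonaute-4 hit Cluster-8110.40636 overlapped too, at 15.2, 11.8 and 14.4 FPKM in dsFactin and 15.1, 12.3 and 15.4 FPKM in dsNC. Signs of both turned positive after median-ratio rescaling.

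The member with the smallest p was also an Argonaute. The gene Cluster-8110.33332, whose nearest named hit is rice argonaute 12 and which carries Piwi and PAZ domains, was at 5.04, 4.81 and 6.43 FPKM in dsFactin and 2.56, 2.86 and 2.13 FPKM in dsNC. Every dsFactin library lay above every dsNC library by a wide margin. The log2 difference was 0.87 ± 0.19 (SE, adjusted p = 0.0949, limma), and 1.10 with voom on recovered fragments, where it passed (adjusted p = 0.0440). It was the only positive one of the 12 Argonautes, where 28.4% of all tested genes were positive. An argonaute-3 hit (Cluster-8110.44825) lay wholly lower, at 1.78, 1.56 and 1.61 FPKM in dsFactin and 2.04, 2.77 and 2.89 FPKM in dsNC (log2 difference -0.42 ± 0.20, adjusted p = 0.321). A further argonaute-3 hit (Cluster-8110.41882) ranged within groups far more than between them, at 0.360, 4.53 and 0.02 FPKM in dsFactin and 2.25, 2.65 and 6.32 FPKM in dsNC.

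Dicer and Drosha transcripts, which make the guides, were at low levels. The Dcr-1 hit (Cluster-8110.37251) was at 2.08, 2.0 and 1.87 FPKM in dsFactin and 2.76, 3.28 and 2.62 FPKM in dsNC, with dsFactin wholly below (log2 difference -0.38 ± 0.19, SE, adjusted p = 0.326, limma). With quantile normalization the difference was -0.05. The other Dicer-like gene (Cluster-8110.38621) overlapped, at 4.41, 3.38 and 2.18 FPKM in dsFactin and 4.94, 4.98 and 3.57 FPKM in dsNC. Drosha (Ribonuclease 3, Cluster-8110.34976) overlapped as well, at 4.28, 3.87 and 4.91 FPKM in dsFactin and 5.21, 5.30 and 3.95 FPKM in dsNC (log2 difference -0.12 ± 0.18, adjusted p = 0.750), and was positive after median-ratio rescaling (0.15).

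RNA-dependent RNA polymerases were the largest role, at means from 0.710 to 41.4 FPKM. Of 17, 0 passed, 5 had a positive difference and 12 a negative one, where 28.4% of all tested genes were positive. In 3 dsFactin lay wholly above and in 1 wholly below dsNC, against 5.98% and 21.5% of all tested genes. At a mean of at least 5 FPKM these shares of all tested genes were 15.6% and 23.5%. Summed FPKM of the polymerases was 195, 186 and 139 in dsFactin and 137, 137 and 144 in dsNC, so dsFactin replicate 3 fell within the dsNC range. The abundant polymerases did not all separate between groups. Cluster-8110.38796 was at 55.2, 41.2 and 46.0 FPKM in dsFactin and 29.8, 28.1 and 32.5 FPKM in dsNC (log2 difference 0.63 ± 0.15, SE, adjusted p = 0.101, limma). Cluster-8110.32649 was at 53.5, 43.8 and 41.7 FPKM in dsFactin and 34.7, 36.1 and 38.6 FPKM in dsNC (log2 difference 0.33 ± 0.14, adjusted p = 0.253). In both, and in Cluster-8110.25552 at 11.2, 8.96 and 7.97 FPKM in dsFactin and 7.62, 6.09 and 6.74 FPKM in dsNC, dsFactin lay wholly above and dsFactin replicate 1 was highest. Cluster-8110.27356 overlapped, at 24.97, 22.8 and 14.5 FPKM in dsFactin and 13.15, 17.36 and 15.89 FPKM in dsNC (log2 difference 0.38). Also overlapping were Cluster-8110.41660 (log2 difference 0.24), Cluster-8110.41661 (-0.08) and Cluster-8110.25249 (-0.01), each with a mean of at least 5 FPKM.

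The long polymerase transcripts were at lower levels and overlapped. Cluster-8110.37213, of 8802 bases, was at 2.82, 2.77 and 1.74 FPKM in dsFactin and 2.86, 2.84 and 2.81 FPKM in dsNC. Cluster-8110.39751, of 4914 bases, was at 4.59, 2.87 and 2.49 FPKM in dsFactin and 5.17, 4.77 and 3.61 FPKM in dsNC. In each, dsFactin replicate 3 was lowest. The only polymerase wholly below was a short, sparse one (Cluster-8110.15850), at 0, 0.640 and 0 FPKM in dsFactin and 0.860, 2.12 and 1.91 FPKM in dsNC, where 3 fragments equal up to 0.515 FPKM (log2 difference -1.12 ± 0.33, adjusted p = 0.152, limma).

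**Figure D4:**
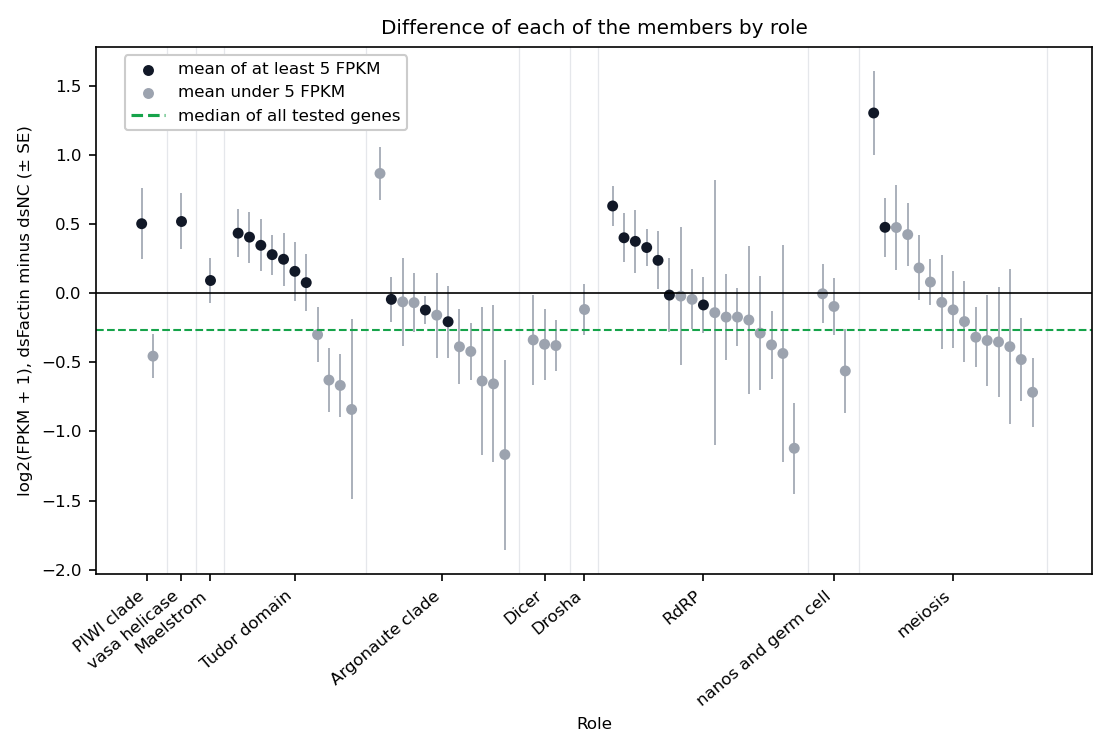
Log2 difference with its SE (dsFactin minus dsNC, log2(FPKM + 1) scale, limma) for each of the 66 members, grouped by role, black at a mean of at least 5 FPKM and grey below it. The dashed line is the median of all tested genes, -0.27. In the Tudor role the 7 positive points are all black, and in the Argonaute role 1 grey point lies above 0.

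Among the meiosis genes SYCP3 stood apart from its sparse partners. Of 15, 0 passed, 6 had a positive difference and 9 a negative one, where 28.4% of all tested genes were positive. Synaptonemal complex protein 3 (SYCP3, Cluster-8110.11728), a component of the axis of meiotic chromosomes in vertebrates, was at 24.4, 34.2 and 53.6 FPKM in dsFactin and 11.7, 17.5 and 12.8 FPKM in dsNC. The groups did not overlap, and dsFactin replicate 3 was highest. The log2 difference was 1.30 ± 0.30 (SE, adjusted p = 0.102, limma), the largest positive one among the 66, and 1.01 without dsFactin replicate 3. Its partner in the axis, synaptonemal complex protein 2 (SYCP2, Cluster-8110.24397), lay wholly lower, at 1.10, 1.16 and 1.15 FPKM in dsFactin and 1.38, 2.10 and 1.56 FPKM in dsNC. The ratio of SYCP3 to this SYCP2 hit within a library was 22.2, 29.4 and 46.6 in dsFactin and 8.46, 8.35 and 8.19 in dsNC. Over the other, sparser SYCP2 hit (Cluster-8110.51448), at 0.840, 1.01 and 0.360 FPKM in dsFactin and 0.280, 1.65 and 0.7 FPKM in dsNC, the ratios overlapped at 29.1, 33.8 and 149 in dsFactin and 41.7, 10.6 and 18.3 in dsNC. The separation over the first hit follows from SYCP3 lying wholly higher and that hit wholly lower, and it thus rests on the hit chosen.

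Meiosis regulator and mRNA stability factor 1 (MARF1, Cluster-8110.27412), an RNase needed in mouse oocytes, lay wholly higher at 10.9, 11.2 and 17.2 FPKM in dsFactin, against 9.70, 9.49 and 7.68 FPKM in dsNC (log2 difference 0.48 ± 0.21, SE, adjusted p = 0.287, limma; 0.28 without dsFactin replicate 3). Meiotic nuclear division protein 1 (Cluster-8110.21526), which in yeast helps recombinases pair homologous strands, overlapped at 3.64, 5.25 and 6.59 FPKM in dsFactin and 3.28, 3.97 and 3.28 FPKM in dsNC. The hit named for the meiotic recombinase DMC1 (Cluster-8110.30086) has a Ty3-type transposon polyprotein as its other best hit and integrase domains, so its reads may not come from a recombinase gene. It lay wholly lower, at 1.75, 0.970 and 1.06 FPKM in dsFactin and 3.04, 3.07 and 2.01 FPKM in dsNC (log2 difference -0.72 ± 0.25, adjusted p = 0.197). The required for meiotic nuclear division protein 1 homolog (Cluster-8110.35667), a mitochondrial protein in mammals, stood at 3.67, 3.59 and 3.29 FPKM in dsFactin and 3.60, 3.11 and 3.11 FPKM in dsNC.

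The remaining meiosis hits had means from 0.572 to 2.61 FPKM and overlapped between groups, among them REC8, the meiotic cohesin subunit (Cluster-8110.9823), at 0.800, 0.630 and 1.58 FPKM in dsFactin and 1.49, 1.18 and 0.790 FPKM in dsNC. The nanos-like gene (Cluster-8110.4888), a translational repressor of germ cells, was at 0.09, 0.730 and 1.06 FPKM in dsFactin and 1.55, 1.38 and 1.06 FPKM in dsNC. Its groups touched at 1.06 FPKM (log2 difference -0.56 ± 0.30, SE, adjusted p = 0.371, limma). The difference was -0.30 without dsFactin replicate 1, and it ran over all alternatives between -1.49 in voom and -0.21 under quantile normalization. The germ cell-less hit (Cluster-8110.26205), whose Drosophila namesake is needed to form pole cells, was at 3.46, 2.79 and 2.91 FPKM in dsFactin and 3.42, 4.04 and 2.62 FPKM in dsNC. A germ cell nuclear acidic protein (Cluster-8110.17551) was at 1.97, 1.81 and 1.83 FPKM in dsFactin and 2.43, 1.57 and 1.70 FPKM in dsNC. Both overlapped, and both were positive after median-ratio rescaling.

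Other genes of the same pathways, listed by further words, were read from the same fit. Of 27 small RNA genes, 0 passed, 2 were higher and 4 lower at an unadjusted p under 0.05, against 4.53% and 14.8% of all tested genes, and the median was -0.06. The lower share was that of all genes, but the median level was 13.5 FPKM in this list and 1.48 FPKM in all tested genes. In 3 dsFactin lay wholly above and in 7 wholly below. At a mean of at least 5 FPKM these shares of all tested genes were 15.6% and 23.5%. RNA helicase Mov10l1-like (Cluster-8110.34038), which feeds piRNA precursors to processing in mice, lay wholly lower at 13.4, 13.9 and 8.41 FPKM in dsFactin, against 20.4, 23.8 and 17.4 FPKM in dsNC (log2 difference -0.76 ± 0.23, SE, adjusted p = 0.155, limma). The FKBP6-like gene (Cluster-8110.36882), a piRNA co-chaperone in mice, lay wholly higher at 14.3, 12.9 and 22.7 FPKM in dsFactin, against 10.6, 12 and 8.46 FPKM in dsNC. The Staphylococcal nuclease domain-containing protein 1 hit (Cluster-8110.36824), a subunit of the RNA-induced silencing complex in flies and worms, lay wholly higher as well, at 153, 149 and 167 FPKM in dsFactin and 121, 119.8 and 122.97 FPKM in dsNC (log2 difference 0.36 ± 0.10, adjusted p = 0.141).

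The serrate homolog (Cluster-8110.38642), which hands primary microRNAs to Drosha, was at 11.6, 12.3 and 11.4 FPKM in dsFactin and 15.7, 17.1 and 14.7 FPKM in dsNC (log2 difference -0.40 ± 0.13, SE, adjusted p = 0.173, limma). All dsFactin libraries lay below dsNC. Staufen (Cluster-8110.32418), a double-stranded RNA-binding protein, overlapped at 110, 115 and 118 FPKM in dsFactin and 115, 122 and 123.4 FPKM in dsNC (adjusted p = 0.730).

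Of 28 further germ line and meiosis genes, 0 passed, 4 were higher and 4 lower at an unadjusted p under 0.05, against the same 4.53% and 14.8%, and the median was -0.01. Those shares are not matched for level, since the median level was 7.07 FPKM in this list and 1.48 FPKM in all tested genes. In 5 dsFactin lay wholly above and in 6 wholly below. At a mean of at least 5 FPKM these shares of all tested genes were 15.6% and 23.5%, though the list also holds genes under 5 FPKM. The largest differences were in RNA-binding proteins. A DAZ protein 1-like gene with boule as its Swiss-Prot hit (Cluster-8110.37405), a translational activator of gametes, was at 68.4, 65.5 and 160 FPKM in dsFactin and 22.6, 26.3 and 21.5 FPKM in dsNC (log2 difference 1.89 ± 0.35, SE, adjusted p = 0.0755, limma). A bicaudal C-like gene (Cluster-8110.38560), an RNA-binding protein of fly oocytes, was at 96.7, 83.9 and 235 FPKM in dsFactin and 32.7, 37.7 and 27.9 FPKM in dsNC (log2 difference 1.90 ± 0.39, adjusted p = 0.0874). Each dsFactin library exceeded each dsNC library, and dsFactin replicate 3 exceeded the others by far. Other hits of the same proteins did not share this. A boule-like gene (Cluster-8110.40802) overlapped at 19, 12.3 and 18.6 FPKM in dsFactin and 18.5, 21.8 and 20.01 FPKM in dsNC, and a bicaudal C hit (Cluster-8110.26843) lay wholly lower at 1.88, 1.95 and 2.1 FPKM in dsFactin, against 2.97, 2.19 and 2.35 FPKM in dsNC. Lowest p among the lower ones had DAZ-associated protein 2 (Cluster-8110.35012), at 72.8, 82.2 and 85.0 FPKM in dsFactin and 108, 110 and 101 FPKM in dsNC (adjusted p = 0.135), which is not limited to germ cells in mammals.

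**Figure D5:**
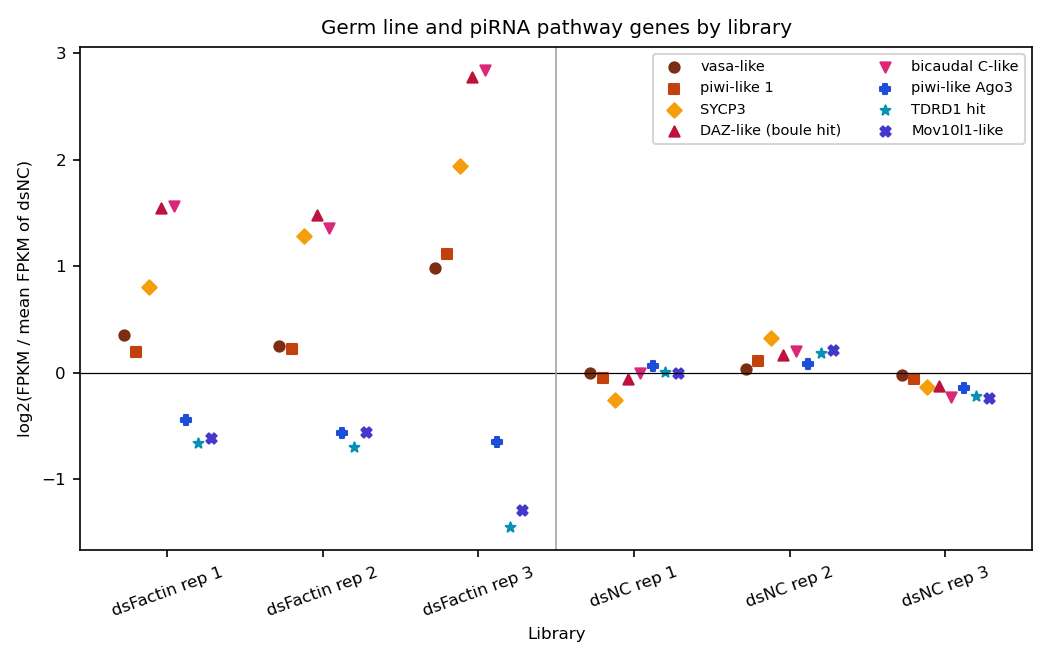
Log2 of the FPKM in each library over the dsNC mean, for the vasa-like helicase, piwi-like protein 1, SYCP3 and the genes with boule and bicaudal C hits (positive in dsFactin), and for piwi-like Ago3, the tudor domain-containing protein 1 hit and the Mov10l1-like helicase (negative in dsFactin). The dsFactin libraries stand left of the dsNC libraries; all but Ago3 are also farther from 0 in dsFactin replicate 3 than in the other libraries by a visible margin.

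Libraries differed in which members they held most of. Of the 22 members with a mean of at least 5 FPKM, 12 (54.5%) were highest in dsFactin replicate 3 and 7 (31.8%) in dsFactin replicate 1, against 23.6% and 15.8% of all tested genes at that level. Those highest in replicate 1 were 6 polymerases and 1 Argonaute, while vasa, piwi-like protein 1, maelstrom, SYCP3, MARF1 and the 7 abundant Tudor genes were highest in replicate 3. Without dsFactin replicate 3, 18 of the 22 had a positive difference, against 42.1% of all tested genes at that level.

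Marker lists of tissues a spider may hold in differing amounts were read beside these genes. Of their sums those of yolk and egg genes did not overlap between groups, by a narrow margin. The 60 yolk and egg genes summed to 14811 to 26086 FPKM in dsFactin and 10371 to 14494 FPKM in dsNC. Of them 31 were positive and 29 negative, where 28.4% of all tested genes were positive. In 17 dsFactin lay wholly above and in 12 wholly below, against 5.98% and 21.5% of all tested genes. The median level of this list was 16.8 FPKM, against 1.48 FPKM for all tested genes. At a mean of at least 5 FPKM, 41% of all tested genes were positive, 15.6% lay wholly above and 23.5% wholly below. The gene that passed higher was vitellogenin-1 (Cluster-8110.3985), a yolk precursor, at 809, 507 and 227 FPKM in dsFactin and 0.290, 0.320 and 0.180 FPKM in dsNC. The nearest sums were 14811 FPKM in dsFactin replicate 1 and 14494 FPKM in dsNC replicate 3. Vitellogenin-1 stood at 809 and 0.180 FPKM in these libraries, so the sums do not separate without that gene. The gene that passed lower was a short vitellogenin-2 hit of 374 bases (Cluster-14054.0). It was listed at 0 in all dsFactin libraries and at 2.83, 4.34 and 3.49 FPKM in dsNC. A vitellogenin-2 hit of 5302 bases (Cluster-8110.23755) lay wholly higher, at 94.93, 16.98 and 25.22 FPKM in dsFactin and 0.75, 1.01 and 0.89 FPKM in dsNC. A chorion peroxidase hit (Cluster-8110.18954) was wholly lower, at 0.410, 0.06 and 0.03 FPKM in dsFactin and 2.39, 3.49 and 3.37 FPKM in dsNC.

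Of 142 testis and sperm genes 0 passed, 6 lay wholly above and 32 wholly below, against 5.98% and 21.5% of all tested genes. The sums of this list overlapped at 1496 to 2388 FPKM in dsFactin and 1708 to 1929 FPKM in dsNC. Its members went both ways. The axonemal dynein heavy chain 7 (Cluster-8110.34192) was at 135, 96.6 and 350 FPKM in dsFactin and 47.5, 48.0 and 42.1 FPKM in dsNC, while a sperm-like histone H1B (Cluster-8110.14435) was listed at 0 in all dsFactin libraries and at 3.06, 2.29 and 1.11 FPKM in dsNC. Of 54 genes of dividing cells 0 passed, 9 lay wholly above and 20 wholly below (median -0.15), against the same 5.98% and 21.5%. The median level of this list was 6.66 FPKM. At a mean of at least 5 FPKM the shares of all tested genes were 15.6% and 23.5%. The sums of this list overlapped at 545 to 734 FPKM in dsFactin and 552 to 607 FPKM in dsNC. Cyclin B (Cluster-8110.29723) was wholly higher at 78.3, 92.3 and 139 FPKM in dsFactin, against 39.8, 49.3 and 35.8 FPKM in dsNC. Topoisomerase 2 (Cluster-8110.33859) was wholly lower at 8.21, 10.1 and 5.42 FPKM in dsFactin, against 18.6, 16.4 and 13.4 FPKM in dsNC, and the replication factor MCM2 (Cluster-8110.15164) was wholly lower too (log2 difference -0.65). The part of these tissues in the members' values was not tested.

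The direction of the members was also read by transcript length. Of 17 members under 1000 bases 5 had a positive difference, and the median of -0.39 was the lowest of the 4 length classes. From 1000 to 2000 bases 8 of 18 were positive (median -0.02), and from 2000 to 4000 bases 7 of 17 were (median -0.04). Of 14 members of at least 4000 bases 2 were positive (median -0.27), among the others Ago3, Dicer and the tudor domain-containing protein 1 and 6 hits. Over all tested genes with a mean of at least 1 FPKM, the positive shares in these classes were 32.1%, 33.1%, 26.3% and 14.2%, in order of length. Their medians were -0.33, -0.21, -0.25 and -0.34. The shortest and the longest genes thus had similar medians, while the longest were positive least often. The member classes also took in members with a mean under 1 FPKM, so the sets compared differ in level. The part of length in the members' values was not tested.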

How the data were processed

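Extraction used Rneasy and library preparation used SMARTER mRNA-Seq kits, as the labels' protocols state. The authors deposited 1 table of FPKM values, rounded to 2 decimals, for assembled gene clusters with lengths and best hits but no coordinates. No aligner or counter is named in those sources, and the submitters' processing notes name the build mm10, a mouse build. Depth was recovered from FPKM steps, and 99.1 to 99.3% of the low values lay less than 0.1 fragments off an integer. Genes reaching 0.5 FPKM in 3 or more libraries were compared as log2(FPKM + 1), which understates changes of low genes, in limma 3.58.1 (R 4.3.3) with an intensity trend, two-sided, with Benjamini-Hochberg adjustment over 53182 genes and a threshold of 0.05. The fit was also run on simulated data with independent noise per gene. Shifts shared by many genes of a library were not simulated, and the recovery is not given here. Members and lists were chosen with earlier results of these data known. Named were, per role, the 4 most abundant members and the 2 smallest p in each direction. The 5 smallest p in each direction over all roles were named too. In other lists the rule took the 2 smallest p in each direction and the 2 most abundant, but only some of these are described. Left out were, among others, a testisin hit (Cluster-8110.34202, log2 difference -0.78) and geminin (Cluster-8110.20280, log2 difference 1.14). Further genes were named after their values were seen, among them SYCP2, REC8, Cluster-8110.38983, Cluster-8110.41794, Cluster-8110.25552, Cluster-8110.37213, Cluster-8110.51448, Cluster-8110.40802, Cluster-8110.26843 and the rows at the limit. Words of the other lists also took in unrelated hits, such as calcyclin-binding protein among genes of dividing cells. No column of another series was present. Alternatives are given in the closing section.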

Additional observations from a re-analysis of the deposited data

How the results depend on the processing

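Of the 37 genes named by rule, 29 kept their sign in every alternative that tested them: 34 were tested in all 15, and Cluster-16227.0, Cluster-8110.15850 and Cluster-8110.4888 in all but the filter at a mean of 1 FPKM. The number of members that passed stayed at 0 except with voom on recovered fragments, where it was 1 (Cluster-8110.33332, log2 1.10), and was 0 in every fit with a library left out. The number of all genes that passed was 264. It was 117 with no filter, 115 after median-ratio rescaling, 174 with no trend, 1206 in voom and 17 with the replicate block. It was 33 to 1297 when a library was left out, the highest without dsFactin replicate 2. The higher share of these calls was 15.5%, and 27.6% under quantile normalization (67 higher and 176 lower), 26% in voom, 5.88% with the replicate block, and 5.19 to 27.6% when a library was left out, lowest without dsNC replicate 3. The median of the members, -0.12, was -0.18 with pseudocount 0.1, 0.089 after median-ratio rescaling, 0.20 under quantile normalization and -0.18 in voom. Leaving out a library gave -0.15 to -0.073. The median of all genes, -0.27, was -0.49, -0.089, 0.011 and -0.45 in these settings in the same order, and -0.30 to -0.20 when a library was left out. Of the 22 abundant members 17 were positive (41% of all genes at that level), 22 once median-ratio factors were used (63.0%), 20 under quantile normalization (50.3%), and 17 to 19 when a library was left out; this count was chosen after seeing the data.

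Signs turned as follows, and the cause was not tested. After median-ratio rescaling the log2 difference was 0.21 for Cluster-8110.17551, 0.15 for Cluster-8110.26205, 0.20 for Cluster-8110.33427, 0.15 for Cluster-8110.34976, 0.10 for Cluster-8110.36267 and 0.26 for Cluster-8110.40636. With quantile normalization it was 0.33 for Cluster-8110.17551, 0.22 for Cluster-8110.26205, 0.17 for Cluster-8110.34976 and 0.090 for Cluster-8110.40636. Cluster-8110.17551 was at 0.0016 with pseudocount 0.1 and 0.012 with voom. With a library left out, the range was -0.085 to 0.12 for Cluster-8110.17551, -0.22 to 0.015 for Cluster-8110.26205, -0.13 to 0.21 for Cluster-8110.30904, -0.44 to 0.046 for Cluster-8110.36267, -0.038 to 0.35 for Cluster-8110.38170 and -0.14 to 0.056 for Cluster-8110.40636. Same-numbered libraries did not deviate together (correlations 0.123, -0.120 and -0.175 for numbers 1, 2 and 3), so the replicate block, under which 0 members passed, pairs only numbers. With 3 libraries a group, depth limits members under about 1 FPKM: 14 of 66 had a mean below it.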

Other observations

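A set of sparse members was held mostly by dsFactin replicate 2 within its group. In 9 of 66 members (13.6%) that library was at least 3 times both other dsFactin libraries, a share close to that of all tested genes (15.1%). The highest of them was a polymerase hit (Cluster-8110.8080), at 1.07, 13.7 and 0.200 FPKM in dsFactin and 1.82, 1.53 and 5.87 FPKM in dsNC. The argonaute-3 hit Cluster-8110.41882, described above, and an argonaute-3 fragment (Cluster-8110.44045), at 0.120, 1.90 and 0 FPKM in dsFactin and 0.870, 0.550 and 3.38 FPKM in dsNC, were also highest in dsFactin replicate 2 among dsFactin and in dsNC replicate 3 among dsNC. The set was found after the values were seen, so no test is given.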
